A study of Mus musculus with 24 samples.

Results

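Hox genes encode homeodomain transcription factors that give cells of the embryo their place along the head-to-tail axis. The mouse array used here carried 39 of them among 18097 targets, chosen by symbol alone as every target named HOX, a cluster letter and a number. By cluster, 11 lay in cluster A on chromosome 6, 10 in cluster B on chromosome 11, 9 in cluster C on chromosome 15 and 9 in cluster D on chromosome 2. Total RNA from mouse colon was measured on 24 single-colour Illumina bead arrays. All mice had the C57Bl/6 background and were treated from 6 weeks of age, by gavage each day for 7 days, with colon taken at 14 weeks, 7 weeks after the last dose. The tested mice carried APCMin/+, the multiple intestinal neoplasia allele of Apc on 1 chromosome, under which mice develop intestinal adenomas. They received ATB-346, a hydrogen sulfide-releasing derivative of naproxen, at 14.5 mg/kg (6 arrays), naproxen, a cyclooxygenase inhibitor, at 10 mg/kg (6 arrays), or vehicle (8 arrays). The 4 remaining arrays came from wild-type mice given vehicle. Vehicle was a dilute solution of DMSO and carboxymethylcellulose. The labels name neither the stretch of colon taken nor whether tumours were in it.

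Within each cluster the genes lie in a row, and their order along the chromosome matches the order of their anterior expression limits along the body axis, with paralogs of high number acting nearest the tail. Retinoic acid and the Cdx factors set these domains in the embryo, Polycomb and Trithorax proteins keep them, and Hox proteins bind DNA together with the TALE homeodomain proteins of the Pbx and Meis families. The gut keeps regional Hox expression in adult epithelium and mesenchyme, and the genes of group 13 are known for their role in the hindgut.

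The arrays gave similar overall brightness, with a raw median of 81.4 to 102.9 intensity units; precision is limited by how many arrays each group had. Markers of colon epithelium were bright in every group, with a mean log2 level over 8 tested genes of 12.56 to 13.02 in ATB-346, 12.53 to 12.79 in naproxen, 12.58 to 12.96 in vehicle and 12.69 to 12.81 in wild-type arrays. Of the 12 marker and pathway lists examined, 1 marked another organ: 11 tested genes of pancreatic acinar cells had a mean level of 6.56 to 6.63 in ATB-346, 6.63 to 10.11 in naproxen, 6.49 to 13.97 in vehicle and 6.56 to 6.92 in wild-type arrays. The arrays numbered 5 to 8 (2 ATB-346, 2 naproxen, 4 vehicle) stood apart from those numbered 1 to 4: of 9048 tested targets, 34.3% passed in that comparison. The labels do not say what the numbers mean, and no wild-type array carries a number above 4. The labels also leave unsaid whether the arrays stand for different mice. Every p-value thus measures only the spread between these samples, and that spread may be technical in part.

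Promoters are shown for 4 members from the groups whose levels went in opposite directions across the arrays, as described further on: Hoxd4 and Hoxd8 on the one side, Hoxa7 and Hoxa13 on the other. Sequences came from RefSeq (GRCm38.p6), which gave a promoter for 22 of the 39 members. Each runs 5′ to 3′ on the gene's strand, from 250 bases before the annotated start to 50 after it. They lie at chr2:74721728-74722027 (Hoxd4, plus strand), chr2:74704365-74704664 (Hoxd8, plus strand), chr6:52218524-52218823 (Hoxa7, minus strand) and chr6:52260831-52261130 (Hoxa13, minus strand). Capitals mark matches on either strand to TTTAT, the core letters of a Cdx site, TGATNNAT, a composite Pbx and Hox site, or AGGTCA, a nuclear receptor half-site as bound by retinoic acid receptors.

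Hoxd4: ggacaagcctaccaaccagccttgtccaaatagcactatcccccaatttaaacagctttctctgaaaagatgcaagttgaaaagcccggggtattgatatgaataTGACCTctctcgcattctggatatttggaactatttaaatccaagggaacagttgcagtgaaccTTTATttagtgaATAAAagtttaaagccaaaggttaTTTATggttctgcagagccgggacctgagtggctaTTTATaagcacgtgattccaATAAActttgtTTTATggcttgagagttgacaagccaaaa
Hoxd8: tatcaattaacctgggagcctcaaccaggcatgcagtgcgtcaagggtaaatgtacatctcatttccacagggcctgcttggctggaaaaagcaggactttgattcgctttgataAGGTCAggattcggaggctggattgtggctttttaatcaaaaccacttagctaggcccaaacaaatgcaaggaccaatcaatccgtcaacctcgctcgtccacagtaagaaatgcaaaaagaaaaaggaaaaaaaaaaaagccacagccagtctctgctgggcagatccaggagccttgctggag
Hoxa7: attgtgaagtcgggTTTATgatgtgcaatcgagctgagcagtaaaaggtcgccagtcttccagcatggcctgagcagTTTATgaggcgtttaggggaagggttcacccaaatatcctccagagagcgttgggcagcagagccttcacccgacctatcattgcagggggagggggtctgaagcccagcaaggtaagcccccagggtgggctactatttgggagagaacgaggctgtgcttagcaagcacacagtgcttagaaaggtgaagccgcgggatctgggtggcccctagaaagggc
Hoxa13: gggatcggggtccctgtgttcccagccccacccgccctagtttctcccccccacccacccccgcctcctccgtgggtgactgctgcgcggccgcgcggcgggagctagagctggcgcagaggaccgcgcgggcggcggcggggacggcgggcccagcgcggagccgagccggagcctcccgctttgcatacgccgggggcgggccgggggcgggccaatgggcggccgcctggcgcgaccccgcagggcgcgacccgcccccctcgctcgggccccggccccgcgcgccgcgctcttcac

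Hoxd4 held 6 matches to TTTAT and 1 to AGGTCA, Hoxd8 held 1 to AGGTCA, Hoxa7 held 2 to TTTAT, and Hoxa13 held none of the 3 motifs. No match overlapped another. The Hoxd4 stretch had a C and G content of 39.7% with 4 CpG pairs, whereas that of Hoxa13 had 81.0% with 45 CpG pairs. Over 24 member promoters, TTTAT was found in 9 (37.5%), against 40.0% of all 32851 RefSeq promoters of that length. TGATNNAT was found in 4 (16.7%), against 8.8% of all, and AGGTCA in 7 (29.2%), against 16.3%. A match describes the letters of the stretch and nothing about binding.

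Cluster A, B and D genes made up most of the Hox genes detected in colon, and 7 of 9 cluster C genes did not meet the background rule. A gene was taken as above background on an array when its raw intensity passed the 95th percentile of 1210 olfactory and vomeronasal receptor targets, which lay between 69.4 and 77.9, and as above background in all when this held on every array of at least 1 group. By this rule 20 of 39 members were above background, against 56.3% of all targets and 2.40% of the receptor targets. The count was 6 of 11 in cluster A (Hoxa2, Hoxa4, Hoxa5, Hoxa7, Hoxa9, Hoxa13), 6 of 10 in cluster B (Hoxb2, Hoxb4, Hoxb5, Hoxb6, Hoxb7, Hoxb9), 2 of 9 in cluster C (Hoxc6, Hoxc10) and 6 of 9 in cluster D (Hoxd3, Hoxd4, Hoxd8, Hoxd9, Hoxd10, Hoxd11). Of these, 15 were above background on all 24 arrays. Hoxb6 was so on 18 arrays, Hoxc6 on 19, Hoxc10 on 14, Hoxd3 on 13 and Hoxd11 on 20. An array showed 19 to 26 members.

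**Figure D1:**
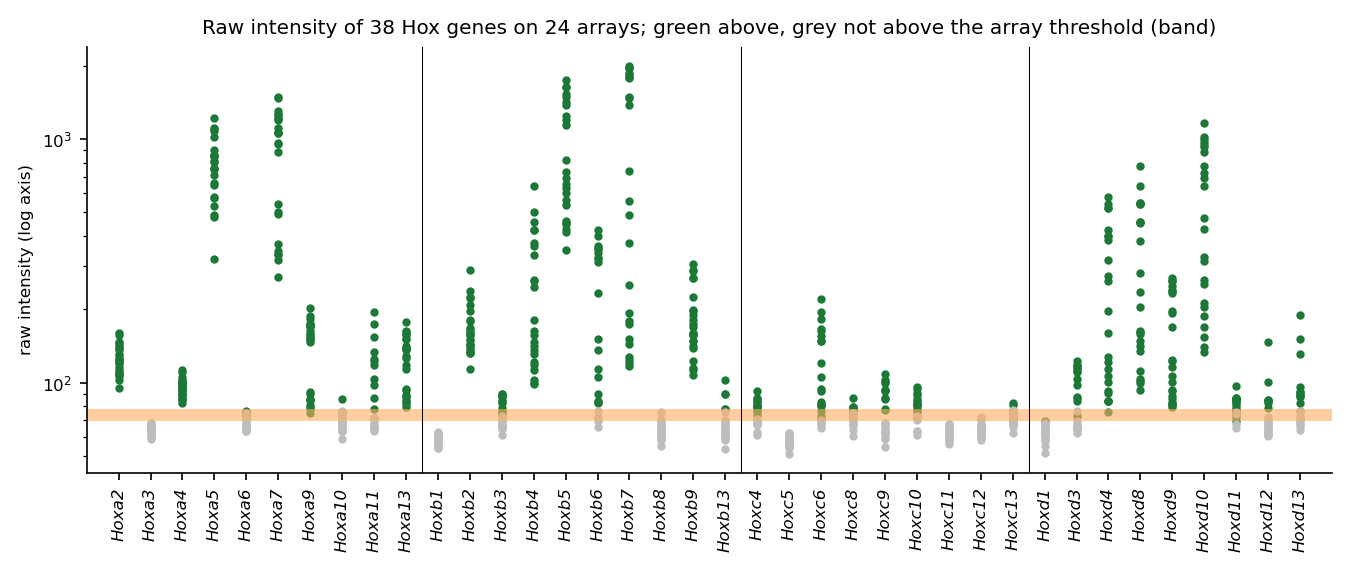
Raw intensity (log axis) of 38 Hox genes, a point for each of 24 arrays, with vertical lines between clusters A, B, C and D. Green points lie above the receptor threshold of their own array, grey points do not, and the band spans the thresholds, 69.4 to 77.9: most of cluster C stays close to the band apart from Hoxc6, which reaches 219.9, while Hoxb7 runs from 117.2 to 1986.4.

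Of the 19 genes not above background, 7 passed on no array by the gene value, which averages a gene's probes. Among these were Hoxb1, which patterns the hindbrain, Hoxa3, needed for the thymus and parathyroid, and Hoxb8, Hoxc5, Hoxc11 and Hoxc12. Hoxd1 passed on 1 array, Hoxa10, best known from the uterus, on 3, Hoxa6 on 4 and Hoxb13, known from the prostate and tail end of the embryo, on 5. Hoxd12 passed on 7 arrays, Hoxc13, a hair and nail gene, on 8, Hoxc8 on 10, Hoxa11, Hoxb3, Hoxc9 and Hoxd13 on 11 each, and Hoxc4 on 15. Single probes passed on more arrays than the averaged value for Hoxa3 (1 of its 2 probes on 7 arrays), Hoxa10 (1 of 2 on 17) and Hoxb3 (1 of 3 on 16), so these counts rest on the averaging. In bulk tissue a low value cannot tell few expressing cells from little RNA per cell. Array signals of different probes are not on 1 scale, so levels are not ranked between genes.

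For 38 members the probe table gave 50 probes: 29 members had 1 probe, 6 had 2 and 3 had 3. Hoxa9, a factor of blood stem cells that works with Meis1, had 3 probes which did not agree: a pair ranged from 78.0 to 259.8 and from 80.3 to 276.5 intensity units over the arrays, the third from 50.9 to 69.6, never above background. Because the gene value averages the probes, the log2 level of Hoxa9 is pulled towards the floor. The same holds for Hoxa13, whose 3 probes passed on 24, 16 and 9 arrays (medians 216.6, 87.7 and 71.3), and for Hoxc10, whose 2 probes passed on 22 and 8 (medians 85.3 and 67.1). Differences given below for these genes average in their dim probes too.

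Hoxb7 varied most. Its log2 level, the scale of every level below, ran in ATB-346 arrays from 7.07 over a median of 8.17 to 10.83, in naproxen arrays from 8.96 over 10.74 to 11.05 and in vehicle arrays from 6.97 over 8.53 to 10.80, while the wild-type arrays gave 7.50, 7.24, 7.15 and 10.82. Every group thus held both low and high arrays except naproxen, where 5 of 6 lay at 10.21 or above. The same held for 2 of 6 ATB-346, 2 of 8 vehicle and 1 of 4 wild-type arrays, and the next array down lay at 9.58. After the mean of its group and number set was removed, the SD of Hoxb7 over the 24 arrays was 1.34, rank 40 of 9048 tested targets.

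Of 17 tested members, 12 were among the 500 targets with the largest such SD, out of 9048 tested. Among the first 100 were 4: Hoxb7, Hoxd10 (0.94), Hoxd4 (0.90) and Hoxb6 (0.89). Many of these genes rose or fell on the same arrays, as described next, so the 12 are not independent cases. The median over the members was 0.59, against 0.12 over all tested targets. Hoxa4 varied least of the 17, with 0.10.

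Several Hox genes of clusters B and D followed the same arrays as Hoxb7. The 10 arrays with the highest Hoxb7 were also the 10 highest for 5 of the other 14 members above background on every array: Hoxb4, Hoxb5, Hoxd4, Hoxd8 and Hoxd9. Hoxb2 shared 9 of the 10 arrays, Hoxd10 8 and Hoxb9 7. Hoxb6, Hoxc6 and Hoxd3 shared all 10 and Hoxc10 9, but they are left out of the count. Hoxc6, Hoxd3 and Hoxc10 met the background rule only through the naproxen arrays, and Hoxb6 only through the naproxen and ATB-346 arrays, and naproxen gave 5 of the 10 arrays with high Hoxb7. For comparison, 0.962% of tested targets (87) shared all 10 and 3.86% shared 9 or more, with a median of 4 shared arrays.

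Most detected cluster A genes went the other way. Hoxa9 and Hoxa13 had those same 10 arrays as their 10 lowest, Hoxa2 and Hoxa7 had 9 of them there, and Hoxa5 8, where 3.11% of tested targets had 9 or more. Hoxa4 had 4 of them among its highest and 6 among its lowest arrays, and Hoxd11 4 and 4. Evx1, the homeobox gene that adjoins Hoxa13 at the end of cluster A, had 9 of the 10 among its lowest. These counts describe the arrays, which share their tissue and processing.

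**Figure D2:**
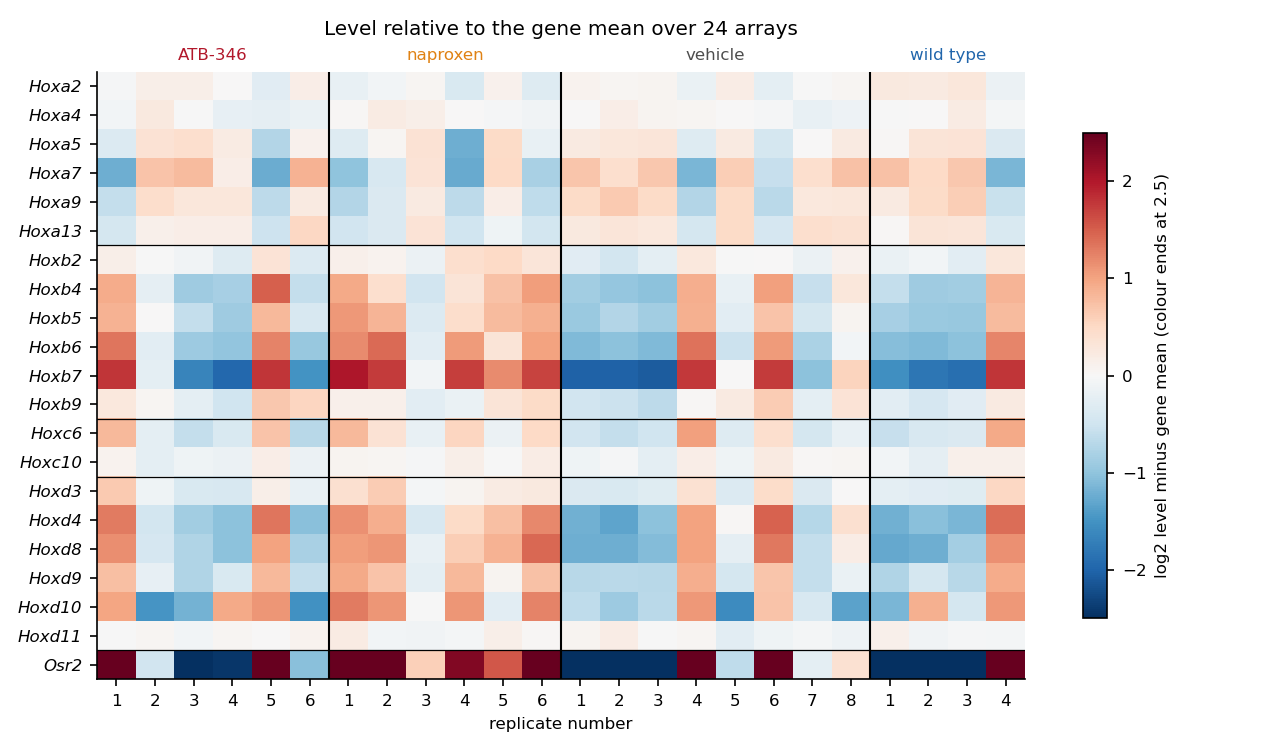
Log2 level of the 20 Hox genes above background, and of Osr2, on each array minus the gene's mean over 24 arrays (red higher, blue lower, colour ends at 2.5), with arrays in columns by group and replicate number and lines between clusters. The columns with red Hoxb4 to Hoxd9 have blue Hoxa7, Hoxa9 and Hoxa13, except naproxen replicate 5, where only Hoxa13 of these is blue, and such columns occur in all 4 groups.

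Hoxd4, which patterns the neck vertebrae, is a clear case of the first set. It ran in ATB-346 arrays from 6.60 over 6.97 to 8.98, in naproxen arrays from 7.23 over 8.46 to 8.84 and in vehicle arrays from 6.32 over 7.30 to 9.12, and the wild-type arrays gave 6.44, 6.58, 6.50 and 9.04. Replicate 4 stood alone among the wild-type arrays, and the ranges of the 4 groups overlapped. Hoxd8, also of cluster D, gave 6.94, 7.38 and 9.12 as lowest, median and highest in ATB-346, 7.78, 8.92 and 9.40 in naproxen and 6.75, 7.56 and 9.28 in vehicle, with 6.69, 6.74, 7.12 and 9.11 in wild-type arrays.

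Hoxb5, which acts in the neural crest cells that form the enteric nervous system, ran from 8.78 over 9.48 to 10.55 in ATB-346, from 9.34 over 10.50 to 10.75 in naproxen and from 8.74 over 9.32 to 10.56 in vehicle arrays, against 8.84, 8.74, 8.73 and 10.47 in wild type. Hoxb6 ran from 6.30 over 6.69 to 8.62 in ATB-346, from 7.01 over 8.32 to 8.70 in naproxen and from 6.17 over 6.61 to 8.64 in vehicle arrays, against 6.21, 6.17, 6.26 and 8.51 in wild type. In vehicle and wild-type arrays the low values of Hoxb6 were partly background: it passed the threshold on 6 of 6 ATB-346, 6 of 6 naproxen, 5 of 8 vehicle and 1 of 4 wild-type arrays.

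Hoxb4, known for expanding blood stem cells, ran from 6.86 over 7.33 to 9.22 in ATB-346, from 7.26 over 8.32 to 8.78 in naproxen and from 6.72 over 7.36 to 8.77 in vehicle arrays, against 7.15, 6.85, 6.87 and 8.60 in wild type. Hoxd9 ran from 6.35 over 6.82 to 7.91 in ATB-346, from 6.87 over 7.82 to 8.04 in naproxen and from 6.41 over 6.59 to 8.01 in vehicle arrays, against 6.35, 6.66, 6.42 and 8.03 in wild type. In both genes wild-type replicate 4 was the high array of its group, as for Hoxb7. Hoxc6 of cluster C ran from 6.01 over 6.39 to 7.50 in ATB-346, from 6.52 over 7.13 to 7.51 in naproxen and from 6.11 over 6.32 to 7.73 in vehicle arrays, against 6.12, 6.29, 6.34 and 7.64 in wild type. Its low values lay around the background threshold, which it passed on 4 of 6 ATB-346, 6 of 6 naproxen, 6 of 8 vehicle and 3 of 4 wild-type arrays.

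Hoxb2, a hindbrain gene, spanned less and ran from 7.05 over 7.33 to 7.72 in ATB-346, from 7.24 over 7.61 to 7.89 in naproxen and from 6.93 over 7.31 to 7.65 in vehicle arrays, against 7.22, 7.32, 7.12 and 7.67 in wild type. Hoxb9 ran from 6.97 over 7.63 to 8.15 in ATB-346, from 7.20 over 7.59 to 7.95 in naproxen and from 6.83 over 7.37 to 8.10 in vehicle arrays, against 7.20, 7.06, 7.20 and 7.69 in wild type. For these genes the groups overlapped over most of their ranges. Of the 3 members above background but too dim for the test, Hoxd3 ran from 6.00 over 6.26 to 7.07 in ATB-346, from 6.36 over 6.63 to 7.04 in naproxen and from 6.03 over 6.08 to 6.86 in vehicle arrays, against 6.16, 6.12, 6.10 and 6.93 in wild type. Hoxc10 ran from 6.04 over 6.15 to 6.45 in ATB-346, from 6.25 over 6.33 to 6.47 in naproxen and from 6.03 over 6.28 to 6.50 in vehicle arrays, against 6.20, 6.05, 6.41 and 6.40 in wild type. Hoxd11 ran from 6.23 over 6.33 to 6.39 in ATB-346, from 6.22 over 6.29 to 6.52 in naproxen and from 6.04 over 6.28 to 6.50 in vehicle arrays, against 6.44, 6.21, 6.29 and 6.26 in wild type. Hoxd11 had no array far from the others in any group, and Hoxd3 followed the arrays of Hoxb7. Over the 24 arrays the span was 0.46 log2 units for Hoxc10, 0.47 for Hoxd11, 0.96 for Hoxb2, 1.07 for Hoxd3, 1.70 for Hoxd9, 1.71 for Hoxc6 and 2.51 for Hoxb4.

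Hoxa7 shows the opposite order. It ran from 8.33 over 10.02 to 10.46 in ATB-346, from 8.32 over 8.98 to 10.09 in naproxen and from 8.45 over 10.10 to 10.31 in vehicle arrays, against 10.33, 10.07, 10.26 and 8.44 in wild type. Here wild-type replicate 4 was the low array. Hoxa13, which shapes the hindgut, limb tips and urogenital tract, ran from 6.39 over 7.04 to 7.42 in ATB-346, from 6.42 over 6.49 to 7.25 in naproxen and from 6.45 over 7.19 to 7.39 in vehicle arrays, against 6.93, 7.22, 7.22 and 6.52 in wild type. Hoxa9 ran from 6.36 over 7.28 to 7.45 in ATB-346, from 6.28 over 6.53 to 7.25 in naproxen and from 6.29 over 7.39 to 7.67 in vehicle arrays, against 7.25, 7.50, 7.63 and 6.47 in wild type. For both genes naproxen had the lowest median of the 4 groups, with an overlap of all ranges.

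Hoxa5, needed for lung and gut development, ran from 8.81 over 9.71 to 9.97 in ATB-346, from 8.33 over 9.48 to 10.03 in naproxen and from 9.11 over 9.77 to 9.85 in vehicle arrays, against 9.58, 9.88, 9.88 and 9.19 in wild type. Hoxa2, a gene of the hindbrain and the second pharyngeal arch, ran from 6.69 over 7.04 to 7.14 in ATB-346, from 6.60 over 6.85 to 7.08 in naproxen and from 6.74 over 7.02 to 7.15 in vehicle arrays, against 7.21, 7.20, 7.27 and 6.82 in wild type. Both were lower on average in naproxen than in vehicle arrays by less than their spread within either group. Hoxa4, the member that varied least, ran from 6.37 over 6.47 to 6.84 in ATB-346, from 6.50 over 6.61 to 6.80 in naproxen and from 6.41 over 6.60 to 6.75 in vehicle arrays, against 6.59, 6.59, 6.80 and 6.55 in wild type.

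**Figure D3:**
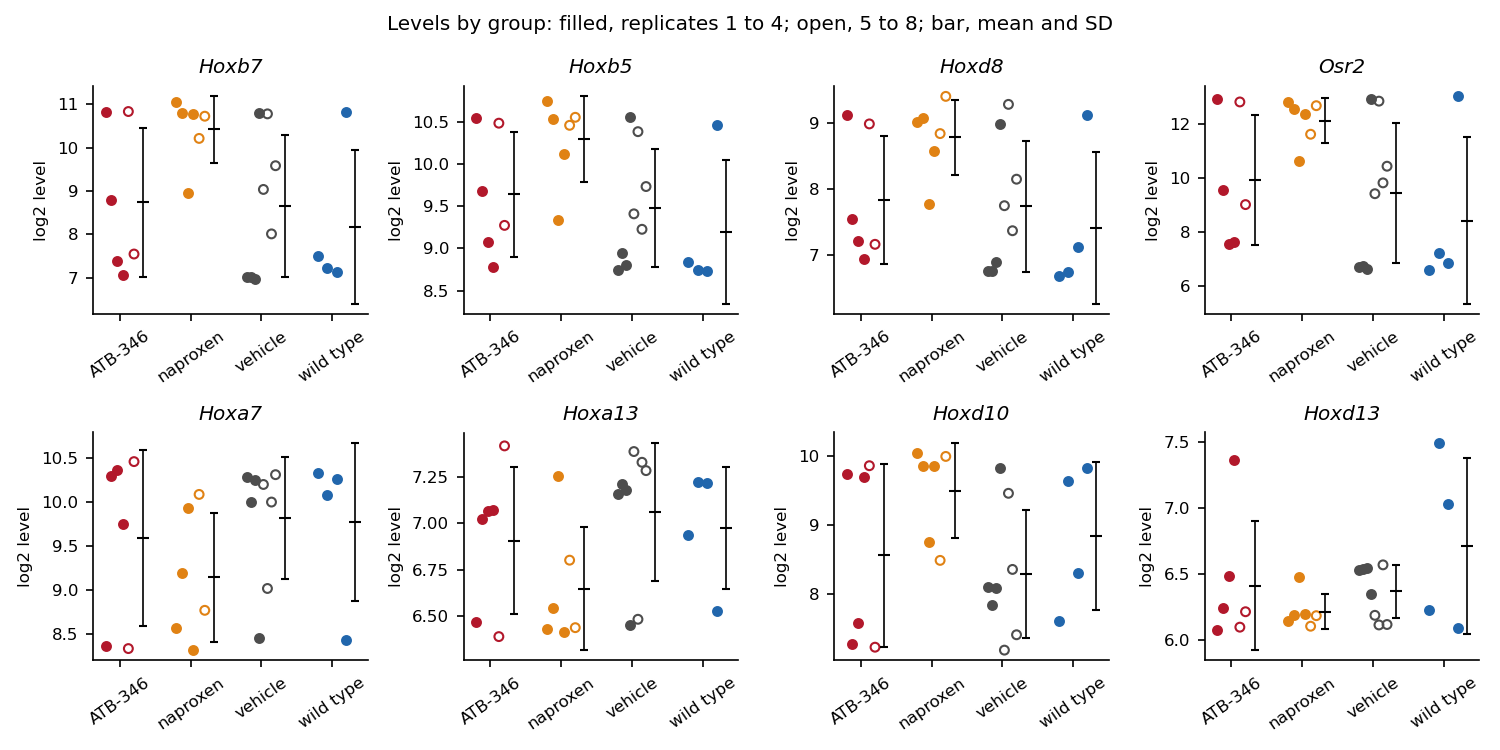
Log2 level of 7 Hox genes and Osr2 by group, a point for each array (filled, replicates 1 to 4; open, 5 to 8), with the mean and SD of the group to the right. Hoxb7, Hoxb5, Hoxd8 and Osr2 are high in 5 of 6 naproxen arrays and in 1 or 2 arrays of every other group, whereas Hoxa13 is low in those 10 arrays and Hoxa7 in 9 of them.

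Osr2, a zinc finger factor of mesenchyme known from palate and tooth formation, varied more than any Hox gene, with an SD of 2.02 after group and number set (rank 3 of all tested targets). It ran from 7.57 over 9.29 to 12.90 in ATB-346, from 10.64 over 12.46 to 12.81 in naproxen and from 6.64 over 9.62 to 12.90 in vehicle arrays, against 6.61, 7.24, 6.85 and 13.01 in wild type. Its 10 highest arrays were the 10 with the highest Hoxb7. Among Hox partners, Meis1 had 9 and Meis2 6 of those arrays among its highest 10. Cdx2, the intestinal homeodomain factor that acts on Hox genes, had 8, and Cdx1 had 7 among its lowest. Over the mean level of a list, the retinoic acid pathway (7 tested genes) and the regional factors (12, Osr2 and Cdx2 included) shared all 10 arrays, adipocyte markers (5) 8, TALE cofactors (5) and enteric neuron and glia markers (3) 7 each, fibroblast markers (9) 5, and the other lists 3 or fewer. Single genes carry part of this: without its most variable gene, a setting chosen after seeing the data, the retinoic acid list (without Aldh1a1) shared 9, the regional factors (without Osr2) 8 and the TALE cofactors (without Meis1) 4. Adipocyte markers lay at 8.37 to 10.62 in ATB-346, 9.57 to 10.38 in naproxen, 8.41 to 11.09 in vehicle and 9.69 to 10.48 in wild-type arrays. The part of cell composition in the Hox pattern was not tested.

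The targets most like Hoxb7 over the 24 arrays, after the mean of each group and number set was removed, were Prap1 (Pearson r 0.99), Slc51a, a bile acid transporter subunit, Hoxb6, Ugt1a10, a glucuronosyltransferase, and Hkdc1, a hexokinase-like gene (each 0.99), and the most opposite was Anxa8, an annexin (-0.97). Hoxd4 was most like Hoxd8 (0.99), Amn, a part of the vitamin B12 receptor (0.99), Hoxb6 (0.98), Hoxb7 (0.98) and Hoxb4 (0.98), and most opposite to Rab32 (-0.97). Hoxd10, known from motor neurons of the hindlimb, had another set: Prxl2b (0.93), Tmem41a (0.89), Scara5, a ferritin receptor (0.89), Pbld2 (0.89) and Agtr1a, the angiotensin receptor (0.89), with Lypd6b at -0.95.

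Hoxd10 departed from its cluster neighbours. It ran from 7.22 over 8.63 to 9.86 in ATB-346, from 8.48 over 9.85 to 10.05 in naproxen and from 7.18 over 8.09 to 9.83 in vehicle arrays, against 7.60, 9.63, 8.30 and 9.82 in wild type. It was high in most of the arrays with high Hoxb7 but also in ATB-346 replicate 4 (9.69) and wild-type replicate 2 (9.63), where Hoxb7 was 7.07 and 7.24. Those were the 2 arrays with the highest Hoxd13, the gene nearest the tail end of cluster D, which acts in digits and the anorectal region. Hoxd13 was 7.36 in ATB-346 replicate 4 and 7.49 in wild-type replicate 2, while its median was 6.22 in ATB-346, 6.18 in naproxen, 6.43 in vehicle and 6.63 in wild-type arrays.

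Hoxd12, next to Hoxd13, was also highest in this pair, at 7.04 and 6.88, and the 5 arrays with the highest Hoxd13 were the 5 with the highest Hoxd12. Hoxb13 shared 3 of those 5. Cdx2 was lowest in the same pair, at 10.01 and 10.79, while its median was 12.26 in ATB-346, 12.35 in naproxen, 12.13 in vehicle and 11.83 in wild-type arrays. Of the 5 arrays with the highest Hoxd13, 3 were among the 5 with the lowest Cdx2. How many of all tested targets share these arrays was not counted. Neither Hoxd13 nor Hoxd12 met the background rule, so most of their values have only an upper bound.

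**Figure D4:**
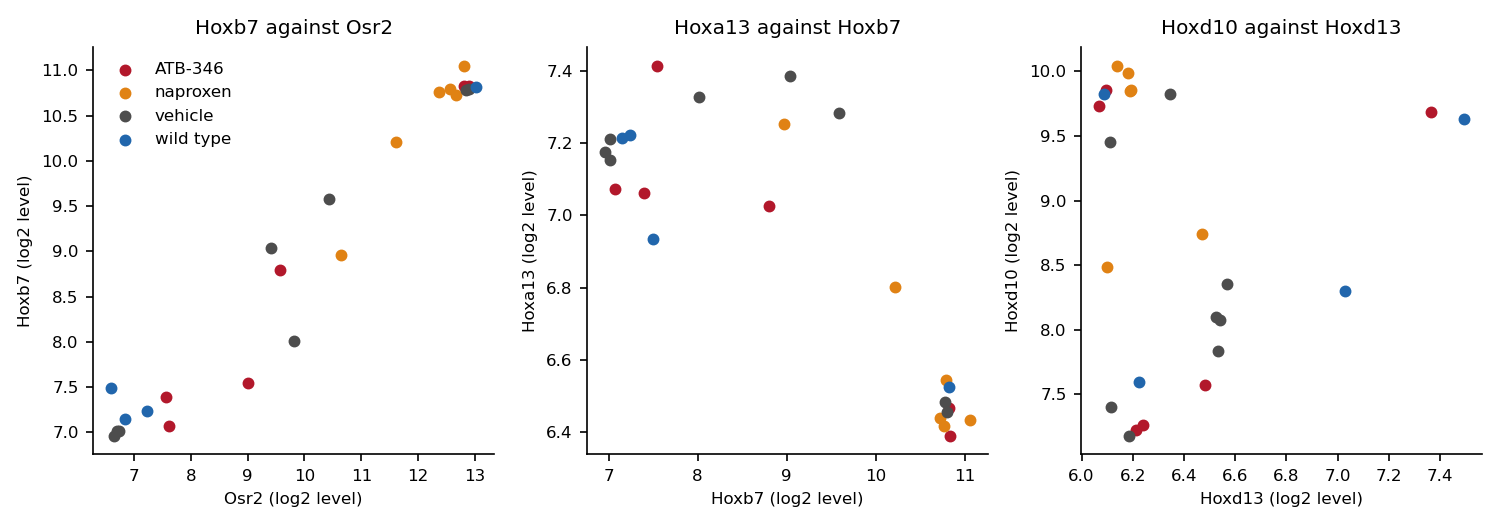
Log2 levels on each of the 24 arrays, coloured by group: Hoxb7 against Osr2, Hoxa13 against Hoxb7, and Hoxd10 against Hoxd13. Hoxb7 climbs with Osr2, Hoxa13 drops to between 6.39 and 6.80 in the 10 arrays with Hoxb7 at 10.21 or more, and the 2 arrays with the highest Hoxd13 have high Hoxd10.

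Naproxen arrays had higher means than vehicle arrays for the tested Hox genes of clusters B and D. The same held for Hoxc6, the only tested gene of cluster C. Means were lower for 5 of 6 in cluster A, and no Hox gene passed the test. Hoxc6 met the background rule only through the naproxen arrays, and Hoxb6 only through the naproxen and ATB-346 arrays. Neither gene can therefore count as support for a higher level in naproxen. This comparison asks whether a week of the parent drug left a trace in the colon weeks later. Of the 17 members that were tested (all of them above background; Hoxc10, Hoxd3 and Hoxd11 were too dim), limma called 0 at an adjusted p under 0.05, and 0% of all 9048 tested targets were called. At an unadjusted p under 0.05 it gave 8 of 17 members, against 8.72% of all tested targets: 7 higher (Hoxb2, Hoxb5, Hoxb6, Hoxb7, Hoxd8, Hoxd9, Hoxd10) and 1 lower (Hoxa13). The adjusted p of each of these 8 was 0.564, and Hoxb6, which cannot count as support, is among them. Levels of the 8 moved together or in opposition across the same arrays, so they are not independent of each other. Their share therefore cannot be read against that of all targets as a count of separate genes.

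Hoxb7 averaged 10.42 ± 0.76 in naproxen arrays (SD, n = 6) and 8.65 ± 1.64 in vehicle arrays (SD, n = 8), a log2 difference of 1.77 with a 95% interval of 0.18 to 3.35. The difference was 1.22 (0.15 to 2.28) for Hoxd10, 1.07 (0.05 to 2.09) for Hoxb6, 1.04 (0.07 to 2.01) for Hoxd8, 0.82 (0.09 to 1.54) for Hoxb5 and -0.41 (-0.80 to -0.03) for Hoxa13. Hoxa7 differed by -0.67 (-1.53 to 0.19) and Hoxd4 by 0.84 (-0.23 to 1.92). The median over the 17 members was 0.44, against 0.01 over all tested targets. That median is the value of Hoxc6, and Hoxb6 is among the 17. Both met the background rule through the naproxen arrays, so the median cannot count as support either. The ranges of the groups overlapped for every member. Osr2, which moved with these genes across arrays, differed by 2.67 (0.24 to 5.11), with the same adjusted p of 0.564. With the level of Osr2 as a covariate, a setting chosen after seeing the data, the member differences lay between -0.28 and 0.51 with a median of 0.02, and that of Hoxb7 was 0.07. Osr2 and Hoxb7 have the same 10 highest arrays, so this setting removes their shared pattern by construction. Smaller differences under it, here and in the comparisons below, say nothing of a cause. Within the arrays numbered 1 to 4 the difference of Hoxb7 was 2.45, and within those numbered 5 to 8 it was 1.10, with adjusted p of 0.701 and 0.769.

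No difference in Hox genes between mice given ATB-346 and mice given vehicle was detectable with these arrays. No member was called (0% of all tested targets), and 0 of 17 passed at an unadjusted p under 0.05, against 6.98% of all tested targets. The median standard error (SE) was 0.33 over the members and 0.09 over all tested targets. Hox differences were thus measured less precisely than most, here and in the comparisons below, so few calls do not mean steadier genes. The median difference was 0.07 (0.01 over all tested targets), with members between -0.22 for Hoxa7 and 0.28 for Hoxd10. That median is the value of Hoxc6, which met the background rule only through the naproxen arrays. Hoxb7 averaged 8.75 ± 1.72 in ATB-346 arrays (SD, n = 6) and 8.65 ± 1.64 in vehicle arrays (SD, n = 8), a difference of 0.09 with an interval of -1.49 to 1.68. It was 0.58 within the arrays numbered 1 to 4, -0.16 within those numbered 5 to 8 and -0.21 with Osr2 as a covariate, with adjusted p of 0.904, 0.995 and 0.835. Hoxb9, which patterns the ribs, differed by 0.21 (-0.21 to 0.63).

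ATB-346 and naproxen share the naproxen moiety, and ATB-346 adds a hydrogen sulfide-releasing group. The doses differ by weight, so the values stand side by side with this limit. ATB-346 against naproxen gave 0 called members (0% of all tested targets) and 0 of 17 at an unadjusted p under 0.05 (6.48% of all). The median difference was -0.38, against 0.00 over all tested targets. It is again the value of Hoxc6, which met the background rule only through the naproxen arrays, so it cannot count as support for a difference. Hoxb7 averaged 8.75 ± 1.72 in ATB-346 and 10.42 ± 0.76 in naproxen arrays (SD, n = 6 each), a difference of -1.67 (-3.37 to 0.02, adjusted p 0.768), and of -0.28 with Osr2 as a covariate (adjusted p 0.781). Hoxd8 differed by -0.95 (-1.99 to 0.09) and Hoxa7 by 0.45 (-0.47 to 1.37). The comparisons of each drug with vehicle use the same vehicle arrays.

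APCMin/+ mice given vehicle did not differ detectably from wild-type mice in any tested Hox gene. This comparison bears on the mutation, but it is partly mixed with the number set. Of the vehicle arrays 4 of 8 are numbered 5 to 8, and of the wild-type arrays 0 of 4. No member was called (0% of all tested targets), and 0 of 17 passed at an unadjusted p under 0.05 (6.43% of all), with a median difference of 0.04 (-0.03 over all). Differences ran from -0.56 for Hoxd10 (-1.77 to 0.65) to 0.48 for Hoxb7 (-1.32 to 2.27). Hoxb7 averaged 8.65 ± 1.64 in vehicle (SD, n = 8) and 8.17 ± 1.77 in wild-type arrays (SD, n = 4). Without wild-type replicate 4 the difference of Hoxb7 was 1.36 (adjusted p 0.582), and in the arrays numbered 1 to 4 it was -0.23 (adjusted p 0.999). With the replicate number as a block, which takes every group as paired by number, the difference was 0.13.

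**Figure D5:**
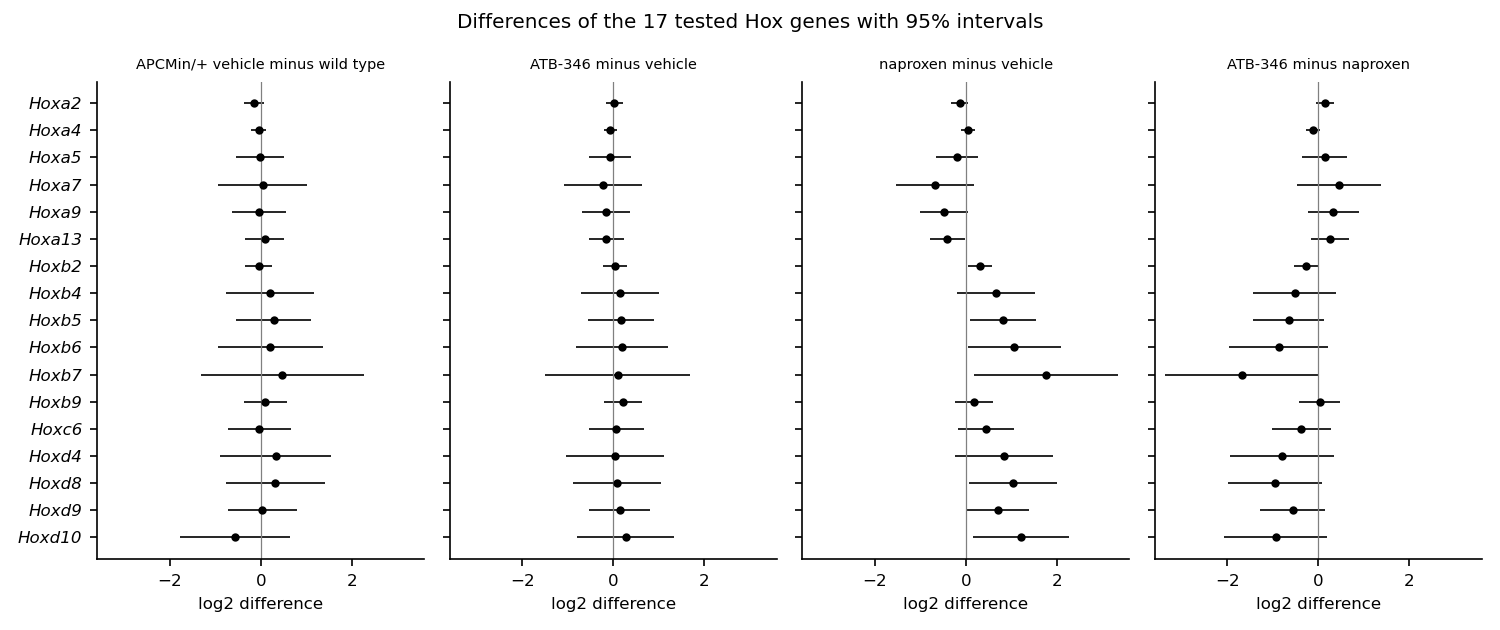
Log2 difference of the 17 tested Hox genes with 95% intervals from limma, for APCMin/+ vehicle minus wild type, ATB-346 minus vehicle, naproxen minus vehicle and ATB-346 minus naproxen. In the naproxen panel the points lie between -0.67 and 1.77 with cluster A genes mostly left of 0, and no gene passes at an adjusted p under 0.05 in any panel.

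The lists around the Hox system gave no call in these 4 comparisons either. Of 23 regional gut factors 12 were tested, of 9 TALE cofactors 5, of 26 Polycomb genes 15, of 12 Trithorax and H3K27 demethylase genes 8 and of 18 retinoic acid genes 7, with 0 called higher and 0 called lower in each. For naproxen against vehicle the median differences were 0.06, 0.04, 0.03, 0.02 and 0.09 in that order, against 0.01 over all tested targets. The smallest unadjusted p among them for naproxen against vehicle belonged to Meis2, with a difference of 0.30 and an adjusted p of 0.488. The 7 cell type lists gave 0 calls as well. All 5 tested adipocyte genes lay higher in naproxen than in vehicle arrays, with a median difference of 0.61. The acinar markers lay higher in vehicle arrays than in wild type for 11 of 11 tested genes, and lower in both drug groups than in vehicle for 11 of 11, with no call and median differences of 2.85, -2.90 for ATB-346 and -2.06 for naproxen. They shared 3 of the 10 arrays with the highest Hoxb7.

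The arrays numbered 5 to 8 differed from those numbered 1 to 4 in 2 of 17 Hox genes, where 34.3% of all tested targets passed (14.1% higher, 20.1% lower). The median SE was 0.30 over the members and 0.07 over all tested targets. Hoxb9 was higher by 0.60 (SE 0.13, adjusted p 0.00112): it ran from 7.23 over 7.88 to 8.15 in the 8 arrays numbered 5 to 8 and from 6.83 over 7.27 to 7.75 in the 12 APCMin/+ arrays numbered 1 to 4, with 7.06 to 7.69 in wild type. Hoxa4 fell by 0.17 (SE 0.05, adjusted p 0.0226), at 6.37 to 6.61 in the arrays numbered 5 to 8 and 6.39 to 6.84 in those numbered 1 to 4. Hoxa4 lost this call without ATB-346 replicate 5 (adjusted p 0.0658) or naproxen replicate 6 (adjusted p 0.0681). Hoxb7 (0.72, SE 0.68), Hoxb4 (0.64, SE 0.36) and Hoxd10 (-0.26, SE 0.48) did not pass. The effect of naproxen or ATB-346 did not differ detectably between the number sets, with 0 members called for either (0% of all tested targets) and 0 at an unadjusted p under 0.05 (3.16% of all for naproxen, 4.05% for ATB-346).

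Hoxa11, which acts in the forearm, kidney and uterus, was too dim for the test, but its levels also differed between the number sets. It ran from 6.69 over 6.89 to 7.61 in the 8 arrays numbered 5 to 8 and from 6.05 over 6.15 to 6.78 in the 12 APCMin/+ arrays numbered 1 to 4, against 6.07 to 6.19 in wild type. The sets overlapped only through ATB-346 replicate 2, at 6.78. It passed the background threshold on 5 ATB-346, 2 naproxen, 4 vehicle and 0 wild-type arrays. With no filter on dim targets the difference was 0.80 (SE 0.10, adjusted p 4.27e-06), where 18.8% of 18097 targets were called. Its 8 highest arrays shared 6 with those of Hoxb9 and 2 with those of Hoxb7.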

How the data were processed

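Total RNA from mouse colon was labelled with biotin and hybridised to Illumina arrays, per the labels' protocols. The authors deposited a gene table of average bead intensity on a linear scale, made with GenomeStudio 1.7.0 with no normalization, per the file headers. The deposited series matrix holds probe intensity from GenomeStudio, per the submitters' processing notes, and served as an alternative: it matched the gene table to within 0.05 intensity units in 98.9% of the values of 9359 single-probe genes. The sources used here do not state if background was subtracted. Columns without a sample numbered 0.

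Intensities were corrected with limma's normexp (offset 50), quantile-normalized and set to log2. Quantile normalization hides a change in total RNA, and the offset draws the log2 differences of dim genes towards 0. Targets with a mean above the median mean (6.54) were tested, 9048 of 18097. The linear model (limma 3.58.1 under R 4.3.3, lmFit then eBayes) had a mean for each group over the 24 arrays, with Benjamini-Hochberg adjustment over all tested targets and a call at 0.05. For the number sets the model had a mean per group and set. No detection p-values were used. Arrays correlated with r of 0.964 to 0.997 and the closest pair differed with an SD of 0.149 (log2), so no array was counted as a duplicate. The fit was also run on simulated data, with changes added to tested targets picked at random. Such targets typically vary less than the Hox genes, so that run does not tell how well changes in Hox genes would be found.

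Every Hox target is accounted for in the counts; 1 of them, and 1 list gene, are not reported here by name. Members above background are given by array, or as lowest, median and highest in groups over 5. Named besides them are Osr2 and Cdx2, the list genes with the smallest p, and the 5 targets most like each of the 3 most variable members. Evx1, Meis1, Cdx1 and Hoxd13 were singled out after their values were seen. The members and lists were chosen with earlier results of these data known.

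Deviations from the group mean of samples with the same replicate number correlated between -0.32 and 0.69 over 22 pairs. Only for APCMin/+ vehicle against wild type did all 4 pairs exceed 0.1 (0.12 to 0.67). Naproxen against vehicle gave -0.22, 0.07, 0.69, 0.39, 0.57 and 0.62 for replicates 1 to 6. Pairing by number is thus not established, the labels do not state it, and the main fit has no pairing term. Alternatives were other background corrections, scalings, filters and sources, both blocks, the compared groups alone, each number set alone, Osr2 as a covariate, and leaving out each array.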

Additional observations from a re-analysis of the deposited data

Results flagged for a closer look

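Of 80 pairs of a Hox gene above background and a group, 9 (11.2%) held an array far from the rest of its group. Chance gives about 1 in 20 for independent pairs. These pairs are not independent and the share over all targets was not counted, so 11.2% cannot be read against it. All 9 were in the wild-type group of 4 arrays. In 8 of them the array was replicate 4. It was far above the other 3 for Hoxb7 (10.82, others 7.15 to 7.50), Hoxb6 (8.51, others 6.17 to 6.26), Hoxb5 (10.47, others 8.73 to 8.84), Hoxd4 (9.04, others 6.44 to 6.58), Hoxc6 (7.64, others 6.12 to 6.34) and Hoxd3 (6.93, others 6.10 to 6.16). It was far below them for Hoxa7 (8.44, others 10.07 to 10.33) and Hoxa2 (6.82, others 7.20 to 7.27). Osr2 was 13.01 on this array. The remaining case was Hoxa4 in replicate 3, at 6.80, with the others at 6.55 to 6.59. These genes moved together across arrays, so the 8 cases on replicate 4 are not independent of each other. The rule weighs 1 extreme array against its nearest neighbour, so 2 high arrays in a group hide each other. Replicate 4 was the only wild-type array among the 10 with the highest Hoxb7, while ATB-346 and vehicle each held 2. That all 9 cases lay in wild type thus follows in part from the rule. Hoxb6 and Hoxd3 each passed the background threshold on only 1 of 4 wild-type arrays. For these genes the values that replicate 4 is set against lie at background.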

How the results depend on the processing

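No Hox gene was called in the 4 group comparisons under any alternative run. This held with the replicate block, where the count was 0 in each and no call changed. That block takes the numbers as pairs in every group, the drug groups included, and such pairing is not established. With it the Hoxb7 difference between vehicle and wild type was 0.13. In the arrays numbered 1 to 4 alone, the only numbers wild type has, the difference was -0.23, so its sign is not settled. The lack of calls also held without any 1 array, where the counts stayed at 0. For the arrays numbered 5 to 8 against 1 to 4, the count of 2 became 4 of 39 members with no filter on dim targets. That is a smaller share than the 18.8% of all 18097 targets called there. It was also 4 with a filter at the 25th percentile (Hoxa11, Hoxa4, Hoxb9 and Hoxc12), where fewer dim genes are left out. Hoxc12 was above background on no array, so its call rests on background values. The count became 1 (Hoxb9) with the series matrix values, where 16 members were tested and Hoxa4 was not among them. Leaving out each array gave 1 to 2 calls, and 1 without ATB-346 replicate 5 or naproxen replicate 6, where Hoxa4 stood at -0.16 in both cases. Of 2933 values recomputed for single genes, 2931 kept their side of the threshold, 2 lost it and 0 called values changed sign, while 166 uncalled ones did. The count of members above background was 17 to 28 under the other thresholds, and 32 when 1 array sufficed, a setting chosen after seeing the data. Dim members near the receptor threshold limit what can be said of cluster C and of Hoxd12 and Hoxd13.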
